A study of Mus musculus with 10 samples.

Results

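Arpp21, Ppp1r14c, Serpini1, Sez6 and Sertm1, 5 genes that neurons express, were described across 10 libraries of neonatal mouse cochlea, together with 4 close relatives, Ppp1r14a, Ppp1r14b, Sez6l and Sez6l2. These 9 genes were taken by symbol from the 54532 genes of the deposited count table. CPM are the reads of a gene per 1000000 reads counted in its library, with that library total scaled by a TMM normalization factor. The 5 were picked because their CPM were lower without overlap in the libraries labelled cKO (conditional knockout), and because they are known from neurons. Bulk libraries do not show which cells held these transcripts. Their difference between the groups therefore chose them and is given as a description, with no test. The 4 relatives were not picked by value and were tested.

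The study sequenced polyadenylated RNA from the cochlear soft tissue of female mice at postnatal day 1, with the thin bony capsule taken off. Both ears of an animal were combined, so that each library stands for 1 animal. The control group held 5 libraries of genotype Esrrgfl/fl, in which the gene of the orphan nuclear receptor ERRγ is flanked by recombination sites. The group labelled cKO held 5 libraries of genotype Esrrgfl/fl;Sox10-Cre. Both groups thus carry the floxed alleles, and Cre is present in the libraries labelled cKO alone, so that the deletion and the presence of Cre cannot be told apart. Sox10 is active in the otic epithelium and in neural crest derivatives such as glia and melanocytes, so recombination under its control is not limited to neurons.

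Counted reads came to 34.5 to 41.8 M (M, 1000000) in a control library and to 33.5 to 39.99 M in a library labelled cKO. The targeted gene went against the label. Esrrg read 56.1, 48.5, 60.9, 64.7 and 61.7 CPM in control libraries 1 to 5 and 109, 96.0, 78.2, 70.7 and 95.01 CPM in libraries labelled cKO 1 to 5. It was higher without overlap in the latter, with a log2 fold change (log2FC, cKO minus control throughout) of 0.62 (SE 0.117, edgeR quasi-likelihood test, adjusted p = 0.0259). The adjusted p was above 0.05 in 7 of the 10 fits that left out 1 library, reaching 0.0992, while the log2FC stayed between 0.54 and 0.70. Gene counts do not show which exons the reads came from, so every direction below is between labels. Among the controls, library 2 was unlike the rest: its score on principal component 1 was -29.0, and theirs were -4.11 to 5.70. Among the libraries labelled cKO, library 5 scored 17.9 and the others -0.69 to 1.77.

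The picked genes sit in several branches of neuronal regulation. ARPP21 is an RNA-binding protein of the R3H family, and its gene carries a microRNA gene in an intron. PPP1R14 proteins inhibit protein phosphatase 1, the enzyme that, with a myosin-targeting subunit, removes phosphate from myosin light chain, and they become strong inhibitors once protein kinase C has phosphorylated them. Serpini1 encodes neuroserpin, a secreted serpin that inhibits tissue plasminogen activator. SEZ6, SEZ6L and SEZ6L2 are membrane proteins with CUB and sushi domains, some of which the protease BACE1 sheds, and they take part in synapse development. SERTM1 is a small membrane protein whose role is little known. In the cochlea the neurons are those of the spiral ganglion, which carry the hair cells' signal to the brain.

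Start sites of the members are shown as a description. The 5 picked genes differed together because they were chosen for it, and whether they differ from their relatives was not tested. The sequences are the 250 bases before the start site in RefSeq's GRCm38.p6 table, on the gene's strand, with CG dinucleotides in capitals. For Arpp21, which has 9 listed windows, the first is given (chr9:112233723-112233972, minus strand). The others are those of Ppp1r14c (chr10:3365900-3366149, plus strand), Serpini1 (chr3:75557243-75557492, plus strand), Sertm1 (chr3:54915888-54916137, minus strand) and, as the relative most abundant here, Ppp1r14b (chr19:6974798-6975047, plus strand).
Arpp21: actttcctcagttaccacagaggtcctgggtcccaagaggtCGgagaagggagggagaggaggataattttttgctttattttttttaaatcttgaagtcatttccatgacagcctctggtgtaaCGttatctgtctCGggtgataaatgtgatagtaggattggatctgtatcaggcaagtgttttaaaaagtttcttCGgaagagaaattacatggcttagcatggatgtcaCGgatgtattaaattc
Ppp1r14c: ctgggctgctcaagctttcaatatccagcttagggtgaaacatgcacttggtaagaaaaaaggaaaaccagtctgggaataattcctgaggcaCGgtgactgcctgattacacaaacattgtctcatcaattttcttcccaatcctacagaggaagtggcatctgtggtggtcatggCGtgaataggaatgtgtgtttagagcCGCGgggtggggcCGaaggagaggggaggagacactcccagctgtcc
Serpini1: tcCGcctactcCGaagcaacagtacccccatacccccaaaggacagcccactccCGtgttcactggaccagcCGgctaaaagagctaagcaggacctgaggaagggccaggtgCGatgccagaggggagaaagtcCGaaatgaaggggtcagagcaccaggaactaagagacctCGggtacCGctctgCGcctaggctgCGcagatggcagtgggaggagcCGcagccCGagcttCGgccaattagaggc
Sertm1: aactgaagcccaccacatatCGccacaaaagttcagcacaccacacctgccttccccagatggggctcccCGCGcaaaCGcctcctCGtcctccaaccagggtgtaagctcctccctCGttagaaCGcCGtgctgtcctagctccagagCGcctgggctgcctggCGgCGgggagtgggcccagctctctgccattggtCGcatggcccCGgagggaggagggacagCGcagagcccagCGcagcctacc
Ppp1r14b: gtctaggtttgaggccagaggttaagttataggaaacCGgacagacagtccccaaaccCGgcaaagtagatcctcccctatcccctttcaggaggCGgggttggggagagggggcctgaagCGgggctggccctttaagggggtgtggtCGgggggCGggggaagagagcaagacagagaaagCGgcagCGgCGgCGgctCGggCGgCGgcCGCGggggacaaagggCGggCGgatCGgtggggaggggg
Of the 9 genes, 7 had a window in the table, with 15 windows in all, and Sez6 and Sez6l2 had none. Arpp21 holds 9 of the 15, and some of its windows overlap each other, so these are fewer than 15 separate stretches. The Arpp21 window shown and that of Ppp1r14c held 5 CG dinucleotides each, near the median of 6 over 32851 mouse windows, whereas Serpini1 held 13, Sertm1 held 15, and Ppp1r14b and Ppp1r14a held 18 each. Sez6l held the most, with 26. Estrogen-related receptors bind TNAAGGTCA, which includes the nuclear receptor half-site AGGTCA. On both strands, 0 of the 15 windows held the longer motif, which 1.14% of all windows held, and 0 held the half-site, which 14.0% held. These letters say nothing of binding outside the windows.

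The microRNAs within Arpp21 and its relative R3hdm1 are shown because both genes give rise to the same mature miR-128-3p. Mir128-2 lies within Arpp21 (chr9:112118636-112118711, minus strand) and Mir128-1 within R3hdm1. The seed, bases 2 to 8, is in capitals in RefSeq's mature sequences.
mmu-miR-128-3p: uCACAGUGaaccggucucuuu
mmu-miR-128-2-5p: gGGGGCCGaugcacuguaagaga
mmu-miR-128-1-5p: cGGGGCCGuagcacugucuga
The 5p arms of both genes share their seed. Poly(A) libraries do not measure mature microRNAs: Mir128-2 had 0 counts in each of the 10 libraries, and Mir128-1 had 1 count, in cKO 1.

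Arpp21 was the picked gene with the lowest remaining level relative to control. Arpp21 (ENSMUSG00000032503, GRCm38 chr9:112065091-112235938, minus strand) read 7.65, 7.48, 7.89, 9.76 and 9.41 CPM in control libraries 1 to 5 and 3.33, 2.66, 3.43, 2.55 and 2.62 CPM in libraries labelled cKO 1 to 5. The highest library labelled cKO stood well under the lowest control library. The mean was 8.44 ± 1.06 CPM (SD, n = 5) in controls and 2.92 ± 0.424 CPM (SD, n = 5) in the libraries labelled cKO, or 34.6% of control, a log2FC of -1.53 (SE 0.141). Behind these levels stood 266 to 368 reads of Arpp21 in a control and 93 to 138 in a library labelled cKO. In all 5 picked genes every library labelled cKO was under every control library, as the choice required, and 1.64% of the 17937 genes tested were lower in this way. In bulk tissue, fewer cells of a type and less RNA per cell cannot be told apart. Of 17937 log2FC values ordered from the lowest, Arpp21 held place 27, Ppp1r14c 62, Sez6 82, Serpini1 153 and Sertm1 207. Exons of Arpp21 overlap 580 bases of 2900079G21Rik on the other strand, which had 7 to 30 counts a library, and whether reads were counted by strand is not given in the sources used here.

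The R3H relatives of Arpp21 did not pass the test. R3hdm1, the host of Mir128-1, averaged 60.1 CPM in controls and 59.97 CPM under the cKO label (adjusted p = 0.995, edgeR), and R3hdm2 at 108 and 121 CPM (log2FC 0.17, SE 0.105, adjusted p = 0.632, edgeR). Among the 23 tested genes of a list of ARPP, R3H and protein kinase A genes, 0 were called in either direction by edgeR, DESeq2 or limma-voom, and 2 had an unadjusted p under 0.05. In a list of this size a share of 0.619% called, that of all genes, comes to less than 1 gene, so a count of 0 says little, here and in the lists that follow. Of the 23, 17 were lower and 6 higher, with a median log2FC of -0.04. Over all genes tested the median was -0.01. Arpp19 and Ensa, regulators of another phosphatase, were at -0.02 and -0.01, and Calm2, a gene of the calcium sensor calmodulin, at -0.35 (adjusted p = 0.383, edgeR); these were named after their values were seen.

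**Figure D1:**
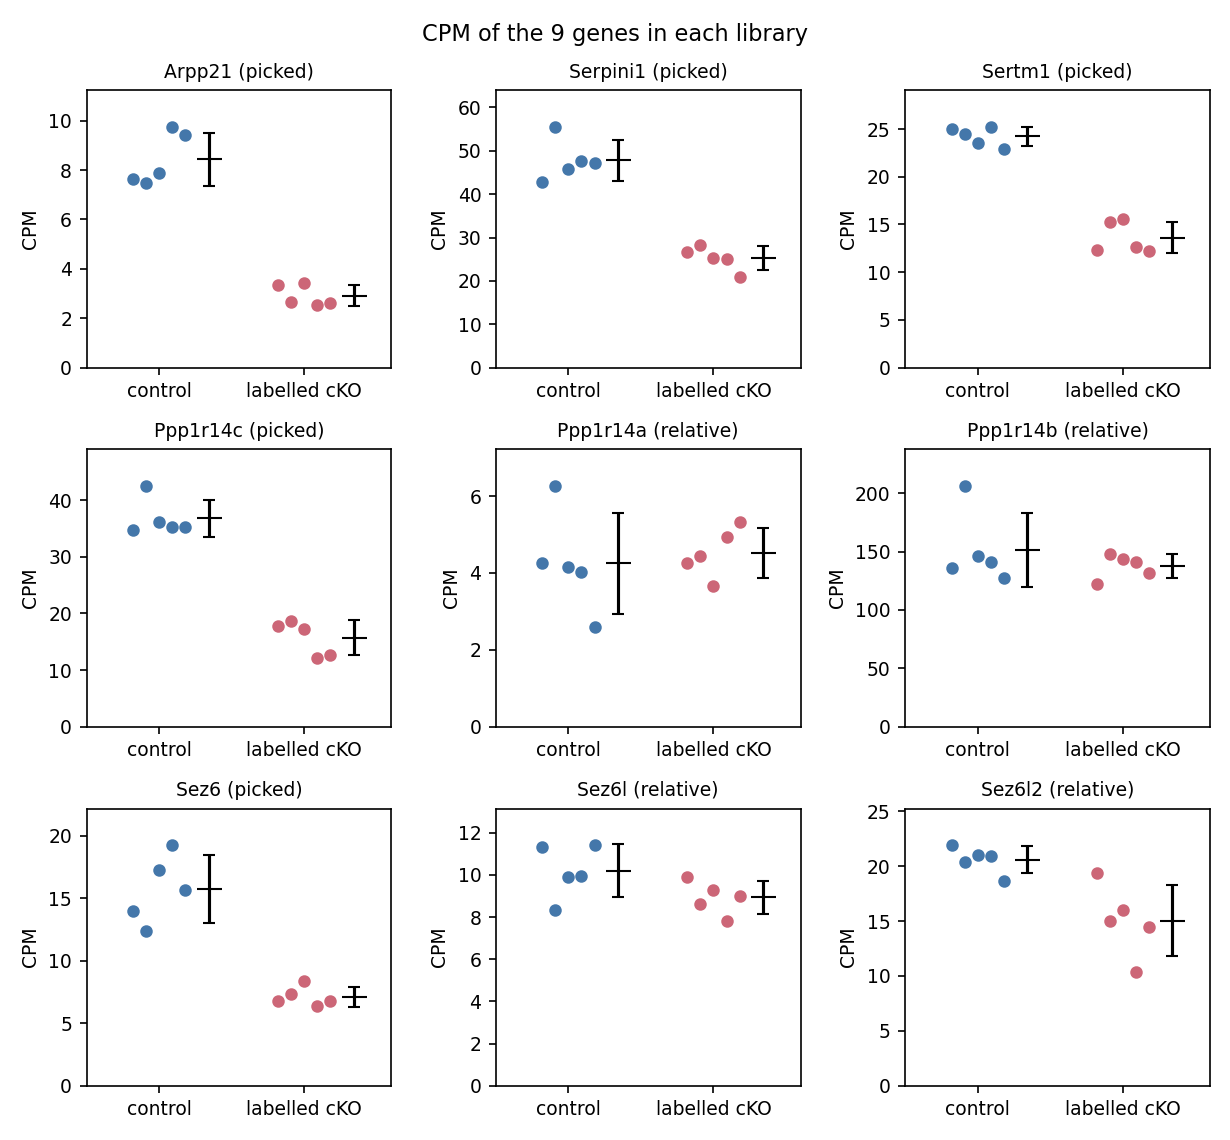
CPM of the 9 genes (vertical axis) in each library of the control group and of the group labelled cKO, with the mean as a bar and the standard deviation as its error. The 5 picked genes do not overlap between the groups, with Arpp21 at 7.48 to 9.76 against 2.55 to 3.43, whereas the 4 relatives overlap.

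In the PPP1R14 family, the member picked stood at less than the control level and the relatives did not pass the test. Ppp1r14c (ENSMUSG00000040653, GRCm38 chr10:3366057-3464975, plus strand), which encodes the inhibitor also known as KEPI, read 34.8, 42.6, 36.1, 35.2 and 35.3 CPM in control libraries 1 to 5 and 17.8, 18.7, 17.3, 12.2 and 12.7 CPM in libraries labelled cKO 1 to 5. Among the libraries labelled cKO, 4 and 5 were lower than the rest. The mean was 36.8 ± 3.26 CPM (SD, n = 5) against 15.7 ± 3.04 CPM (SD, n = 5), or 42.8% of control, a log2FC of -1.23 (SE 0.127). Its exons share 765 bases with Gm26752 on the other strand, 29.2% of its exon length, and that gene had 0 to 9 counts a library.

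Ppp1r14a, the smooth muscle inhibitor CPI-17, read 4.24, 6.27, 4.15, 4.02 and 2.58 CPM in control libraries 1 to 5 and 4.26, 4.43, 3.66, 4.93 and 5.33 CPM in libraries labelled cKO 1 to 5. Its groups overlapped throughout, and its log2FC was 0.09 (95% interval -0.37 to 0.55, edgeR adjusted p = 0.904). Without control 5, the lowest control, the value was -0.05, so its direction rested on that library. Ppp1r14b, a broadly expressed phosphatase inhibitor, read 136, 206, 146, 141 and 128 CPM in controls 1 to 5 and 122, 148, 143, 141 and 132 CPM in libraries labelled cKO 1 to 5. Its high point was control 2, and the other libraries of both groups ran from 122 to 148 CPM. Its log2FC was -0.14 (95% interval -0.41 to 0.13, edgeR adjusted p = 0.716). Of the 4 relatives of the picked genes, 0 were called at an adjusted p under 0.05, where 0.619% of all genes tested were called either way. An unadjusted p under 0.05 was found for 1 relative, Sez6l2, and for 9.65% of all genes. None of the 4 was free of overlap between the groups, against 2.84% of all genes that were, 1.2% of them higher in the libraries labelled cKO. Ppp1r14d, the fourth gene of the family, was scarce, at 0.325 CPM (controls) and 0.414 CPM (cKO label) (log2FC 0.37, SE 0.420, adjusted p = 0.794, edgeR).

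Per length of transcript, on the deposited FPKM scale, Ppp1r14b dominated the family. The family total was the summed FPKM of Ppp1r14a, Ppp1r14b, Ppp1r14c and Ppp1r14d. Of this total, Ppp1r14b made up 90.3% ± 0.584 in controls and 93.8% ± 0.638 in libraries labelled cKO (SD, n = 5 each). The share of Ppp1r14c was 7.83% ± 0.766 in controls and 3.78% ± 0.751 in libraries labelled cKO, without overlap. Ppp1r14c was picked for lower CPM, so the separation of its share is largely fixed by the choice. The family total was 181 ± 34.9 FPKM and 158 ± 11.7 FPKM, and overlapped.

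Serpini1 (ENSMUSG00000027834, GRCm38 chr3:75557547-75643495, plus strand) was the picked gene with the most reads. It read 42.8, 55.6, 45.8, 47.6 and 47.1 CPM in control libraries 1 to 5 and 26.7, 28.3, 25.2, 25.05 and 20.99 CPM in libraries labelled cKO 1 to 5. Control 2 was the highest and cKO 5 the lowest library. The mean was 47.8 ± 4.74 CPM (SD, n = 5) against 25.3 ± 2.72 CPM (SD, n = 5), or 52.9% of control, a log2FC of -0.92 (SE 0.0977). Its main target, tissue plasminogen activator (Plat), averaged 145 CPM in controls and 163 CPM under the cKO label (log2FC 0.17, SE 0.0655, adjusted p = 0.410, edgeR). Plat was higher without overlap in the libraries labelled cKO, at 152.3 to 171.8 CPM against 139.2 to 152.1 CPM. Of 12 tested genes of a list of serpins, plasminogen activators, their receptors and matrix proteases, 0 were called by edgeR, DESeq2 or limma-voom and 1, Plat, had an unadjusted p under 0.05, with 6 lower and 6 higher and a median log2FC of -0.01. The serpin Serpine2, which also inhibits Plat, was at -0.17, and the urokinase gene Plau at -0.29, and neither was called.

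The SEZ6 family held 1 picked member and 2 relatives. Sez6 (ENSMUSG00000000632, GRCm38 chr11:77930800-77979048, plus strand) read 13.9, 12.4, 17.3, 19.3 and 15.7 CPM in control libraries 1 to 5 and 6.75, 7.32, 8.36, 6.36 and 6.75 CPM in libraries labelled cKO 1 to 5. The controls spread more widely than the libraries labelled cKO. The mean was 15.7 ± 2.71 CPM (SD, n = 5) against 7.11 ± 0.779 CPM (SD, n = 5), or 45.2% of control, a log2FC of -1.14 (SE 0.132).

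Sez6l (ENSMUSG00000058153, GRCm38 chr5:112419151-112577185, minus strand) read 11.3, 8.35, 9.92, 9.95 and 11.4 CPM in control libraries 1 to 5 and 9.89, 8.63, 9.28, 7.81 and 9.02 CPM in libraries labelled cKO 1 to 5. The groups overlapped, and the log2FC was -0.19 (95% interval -0.46 to 0.075, edgeR adjusted p = 0.624). Sez6l2 (ENSMUSG00000030683, GRCm38 chr7:126950563-126970606, plus strand) read 21.97, 20.4, 20.99, 20.9 and 18.6 CPM in control libraries 1 to 5 and 19.4, 15.0, 16.0, 10.3 and 14.4 CPM in libraries labelled cKO 1 to 5. Of the 5 libraries labelled cKO, 4 lay under every control, and cKO 1 lay above control 5, so the gene missed the rule of no overlap by that pair. The log2FC of Sez6l2 was -0.45 (95% interval -0.77 to -0.14), with an unadjusted p of 0.00491 and an edgeR adjusted p of 0.241. With limma-voom and quality weights it was -0.56 with an adjusted p of 0.0292, so the call depended on the tool. Whether the genes of the family differ in their fold change was not tested.

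**Figure D2:**
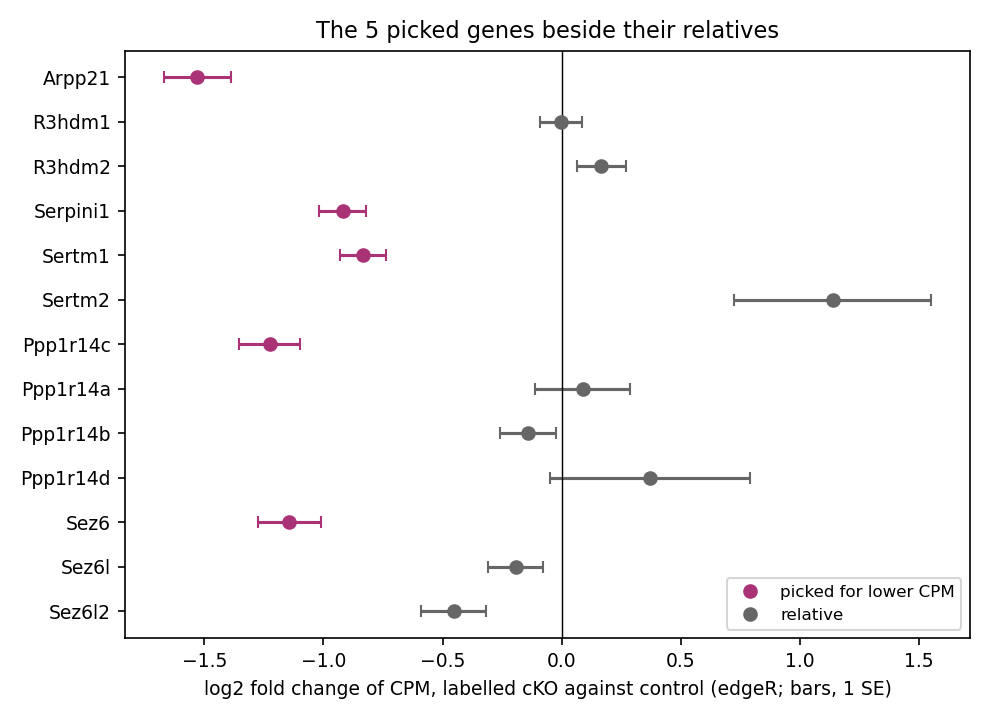
log2 fold change (horizontal axis, cKO minus control) for each of the 9 genes and the further relatives, with bars of 1 SE, which are narrower than the 95% interval. The 5 picked genes lie from -1.53 to -0.83 and are shown without a test, and Sez6l2 at -0.45 is the lowest of the 4 close relatives.

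On the FPKM scale, Sez6 made up 29.2% ± 3.56 of the family total in controls and 19.9% ± 2.63 in libraries labelled cKO, without overlap. Sez6l made up 18.1% ± 2.04 and 23.7% ± 1.87 (SD, n = 5 each), and was higher without overlap as a share. Sez6l2, the most abundant member, made up 52.8% ± 3.67 and 56.5% ± 4.09 and overlapped. The family total was 9.21 ± 0.667 FPKM in controls and 6.24 ± 0.953 FPKM in libraries labelled cKO, without overlap. Sez6 was picked for lower CPM, so the separation of the shares and of this total follows in part from the choice. A share of a total depends on the other members, so these are descriptions of the mixture. Of 26 tested genes of a list of CUB and sushi proteins, BACE1 and its substrates, 0 were called by edgeR and 6 had an unadjusted p under 0.05, with 12 lower and 14 higher and a median log2FC of 0.01. Bace1, the shedding protease, was at 0.22 (adjusted p = 0.553, edgeR). Aplp1, a substrate of the same protease, was at -0.38 (SE 0.0948, adjusted p = 0.117, edgeR), and Susd4, a sushi protein, at -0.23 (adjusted p = 0.222, edgeR). Neither overlapped between the groups. DESeq2 called both (adjusted p = 0.0210 and 0.0483), as did limma-voom, which also called Nrg1, a growth factor cut by the same protease (-0.64, adjusted p = 0.0440). These genes were named after their values were seen.

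Sertm1 (ENSMUSG00000056306, GRCm38 chr3:54897068-54915887, minus strand) varied least among controls. It read 25.05, 24.5, 23.6, 25.2 and 22.9 CPM in control libraries 1 to 5 and 12.4, 15.2, 15.5, 12.6 and 12.3 CPM in libraries labelled cKO 1 to 5. All controls stood within a narrow band. The mean was 24.3 ± 0.992 CPM (SD, n = 5) against 13.6 ± 1.64 CPM (SD, n = 5), or 56.1% of control, a log2FC of -0.83 (SE 0.0967). Its relative Sertm2, listed in the table as A730046J19Rik, had 3 to 18 counts in controls and 11 to 25 in libraries labelled cKO, a log2FC of 1.14 (SE 0.415, unadjusted p = 0.0159, adjusted p = 0.380, edgeR).

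Among the members, per-length levels in controls ran from 163 ± 32.8 FPKM for Ppp1r14b to 0.480 ± 0.0614 FPKM for Arpp21, whose exons are long. Below Ppp1r14b the order in controls was Ppp1r14c (13.9 ± 1.14 FPKM), Sertm1 (7.48 ± 0.321), Serpini1 (6.50 ± 0.597), Sez6l2 (4.85 ± 0.308), Ppp1r14a (3.08 ± 0.934), Sez6 (2.70 ± 0.477) and Sez6l (1.67 ± 0.212 FPKM). Sertm1 overlapped Serpini1, Ppp1r14a overlapped Sez6l2 and Sez6, and the other neighbours were apart. In the libraries labelled cKO, Ppp1r14c was at 5.98 ± 1.17 FPKM, Sertm1 at 4.21 ± 0.519, Sez6l2 at 3.55 ± 0.774, Serpini1 at 3.45 ± 0.387 and Ppp1r14a at 3.29 ± 0.454 FPKM, each overlapping the next. Sez6 (1.22 ± 0.136 FPKM) overlapped Sez6l (1.46 ± 0.126 FPKM) there, whereas it was above Sez6l in each control library. Errors are SD over 5 libraries.

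Within a group the members did not move as one. In controls, the coefficient of variation of CPM ran from 4.09% for Sertm1 and 5.94% for Sez6l2 to 20.8% for Ppp1r14b and 30.9% for Ppp1r14a. Control 2 was the highest control for Ppp1r14c, Ppp1r14a, Ppp1r14b and Serpini1 and the lowest for Arpp21, Sez6 and Sez6l. In the libraries labelled cKO, the coefficient ran from 7.49% for Ppp1r14b to 21.7% for Sez6l2. There, cKO 4 was the lowest library for Arpp21, Ppp1r14c, Sez6, Sez6l and Sez6l2, whereas Serpini1 and Sertm1 were lowest in cKO 5. Between the highest and the lowest library labelled cKO, Sez6l2 differed 1.88-fold and Ppp1r14c 1.54-fold.

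The neuronal RNA in each library was read from 24 pan-neuronal genes and 19 spiral ganglion genes. The mean log2 CPM of the pan-neuronal list was 6.15 ± 0.0281 in controls and 5.87 ± 0.319 in libraries labelled cKO, and overlapped: cKO 1, at 6.29, was the highest of all. Of the list, 2 genes were called lower, against 0.546% of all genes, and 20 of 24 had a negative log2FC, with a median of -0.32. In it, 12 lower genes and 1 higher gene had an unadjusted p under 0.05, as did 9.65% of all genes. The called genes were Elavl4, a neuronal RNA-binding protein (-0.74, adjusted p = 0.00108, edgeR), and Ina, a neurofilament subunit (-0.67, adjusted p = 0.0230, edgeR), the latter lost in 6 of 10 fits that left out 1 library. Exons of Ina overlap another gene, as do those of Olig1, Sgpp2, Syt7 and Mylk, named further on. The mean log2 CPM of the spiral ganglion list was lower without overlap in the libraries labelled cKO, at 4.99 (4.78 to 5.16) against 5.28 (5.21 to 5.32), and its summed level was 999 to 1090 CPM against 1147 to 1271 CPM. Of its 19 genes, 4 were called lower and 0 higher, 13 had a negative and 6 a positive log2FC, and the median was -0.13. An unadjusted p under 0.05 was found for 8 of the lower and 2 of the higher genes. Among the called genes were the vesicular glutamate transporter Slc17a7 (-1.13, adjusted p = 0.00108) and the calcium-binding proteins Calb2 (-1.67, adjusted p = 0.00108) and Pvalb (-1.21, adjusted p = 0.0282), all by edgeR, with the Pvalb call lost in 8 of 10 such fits.

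Both lists were thus lower on average in the libraries labelled cKO, by -0.28 and -0.29 in log2 units, and each member was set against them as a description. The picked genes were chosen for groups that do not overlap, so a separation that remains after a shift of this size is largely fixed by the choice and supports nothing. Against the pan-neuronal mean of the same library the difference was -1.24 for Arpp21, -0.96 for Ppp1r14c, -0.85 for Sez6, -0.64 for Serpini1 and -0.56 for Sertm1, in log2 units. Against the spiral ganglion mean the differences were -1.23, -0.95, -0.84, -0.63 and -0.55 in the same order. The relatives, not picked by value, were at -0.20 for Sez6l2, 0.09 for Sez6l, 0.15 for Ppp1r14b and 0.41 for Ppp1r14a against the pan-neuronal mean. In cKO 1 the pan-neuronal mean was above that of every control. Its spiral ganglion mean, 5.16, was below that of every control (5.21 to 5.32). Log2 differences there from the control mean were -1.32 for Arpp21, -1.20 for Sez6, -1.04 for Ppp1r14c, -0.97 for Sertm1 and -0.83 for Serpini1. The direction of these picked genes in cKO 1 was fixed by the choice. Sez6l and Sez6l2 were at -0.03 and -0.08 there. In cKO 4, which had the lowest pan-neuronal mean (5.41), Sez6l2 was at -0.99, and against the pan-neuronal mean it ran from -1.94 to -1.65 in controls and from -2.03 to -1.92 in libraries labelled cKO.

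**Figure D3:**
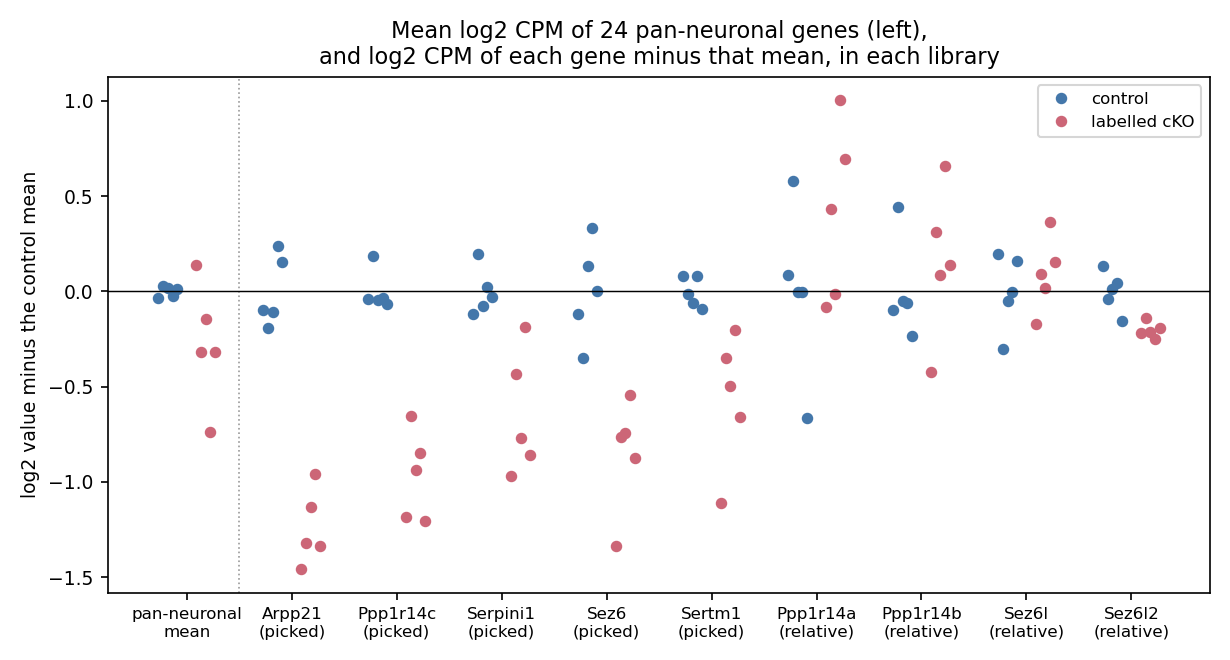
log2 CPM of each gene minus the mean log2 CPM of the 24 pan-neuronal genes of the same library, for both groups, with points for libraries. The leftmost column is the pan-neuronal mean itself. On the vertical axis, the control mean of each column is subtracted, so controls centre on 0. The mean differences run from -1.24 for Arpp21 to 0.41 for Ppp1r14a; the picked genes were chosen for CPM without overlap, so their separation is a description.

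Markers of other cells moved in part with the picked genes. Schwann cell and satellite glia genes had 0 of 15 called, but 12 were lower, with a median of -0.37. Of the 15, 6 had an unadjusted p under 0.05, all of them lower. The summed level of the list was 1414 to 1624 CPM in controls and 997 to 1487 CPM in libraries labelled cKO. Of 6 tested oligodendrocyte genes, 5 were lower, all 5 with an unadjusted p under 0.05, and 1 was higher, with a median of -1.32. Olig1 (-2.75, adjusted p = 0.000246, edgeR) and Olig2 (-2.04, adjusted p = 0.00575, edgeR) were called. The summed level of that list of 9 was 79.6 to 97.0 CPM against 63.9 to 76.5 CPM, without overlap. Its myelin genes were near 0, with Mog at 5 to 19 and Mobp at 0 to 26 counts a library. Of 7 astrocyte genes, the water channel Aqp4 fell (-1.61, adjusted p = 0.0033, edgeR), and the summed level overlapped, at 152 to 214 CPM and 181 to 237 CPM.

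Brain neuron genes were checked because brain tissue could add neuronal RNA. Of 15 listed, 8 were tested and Cbln1 fell (-0.89, adjusted p = 0.0399, edgeR), a call lost in 8 of 10 fits that left out 1 library. The list's summed level was 271 to 307 CPM in controls and 285 to 368 CPM in libraries labelled cKO. Gabra6, a marker of cerebellar granule cells, had 0 counts in every library. Whether Gabra6 is active in brain at postnatal day 1 was not checked, so this does not show that brain tissue was absent. The hair cell list had 0 of 13 called, with a median of 0.01.

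The remaining lists had 0 calls by edgeR. All 6 erythroid genes had a negative log2FC, with a median of -0.80 and 1 unadjusted p under 0.05, and their summed level was 713 to 2965 CPM in controls and 444 to 1295 CPM in libraries labelled cKO. All 8 melanocyte and intermediate cell genes had a positive log2FC (median 0.18; summed 305 to 390 CPM against 345 to 399 CPM), as did all 6 marginal cell genes (median 0.20; summed 803 to 1072 CPM against 1032 to 1115 CPM), each list with 1 unadjusted p under 0.05. Medians were 0.13 for periotic mesenchyme, 0.10 for macrophages, 0.03 for smooth muscle and pericytes and 0.02 for supporting cells, and the summed levels of these lists overlapped. The part of these glial, oligodendrocyte, astrocyte, erythroid, melanocyte and marginal cell genes in the lower values of the picked genes was not tested.

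Partners and regulators of the members were read from pathway lists of 100 genes, 95 of them tested. Of these, 1 gene, Prkcb, was called lower, which is 1.05%, against 0.546% of all genes, and 0 were called higher, against 0.0725%. Of the 95, 14 had an unadjusted p under 0.05, or 14.7%, against 9.65% of all genes. Prkcb encodes the beta form of protein kinase C, a kinase of the family that activates PPP1R14 inhibitors. It read 38.9, 39.1, 43.3, 43.5 and 39.5 CPM in control libraries 1 to 5 and 27.9, 27.5, 26.4, 22.5 and 26.9 CPM in libraries labelled cKO 1 to 5. The groups did not overlap, and the fall was -0.64 (SE 0.0832, adjusted p = 0.00175, edgeR), from -0.67 to -0.59 when 1 library was left out. Its relatives Prkca, Prkcd and Prkce were at 0.11, -0.01 and 0.11, and were not called.

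The enzyme that PPP1R14 proteins inhibit stayed near 0 in log2FC: the catalytic subunits Ppp1ca, Ppp1cb and Ppp1cc were at -0.06, -0.07 and -0.04, and the kinases Rock1 and Rock2, which also act on this phosphatase, at -0.01 and 0.07. Mylk, the kinase that phosphorylates myosin light chain, was at 0.36 (adjusted p = 0.311, edgeR), without overlap. Ppp1r1b, the inhibitor DARPP of the same phosphatase, was at 0.37 (adjusted p = 0.313, edgeR), also higher without overlap. Its relative Ppp1r1c was at -0.36 (adjusted p = 0.363, edgeR) and overlapped. In the list of 33 PPP1R14, phosphatase and myosin genes, 18 were lower and 15 higher, and 1 was called. These genes other than Prkcb were named after their values were seen.

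**Figure D4:**
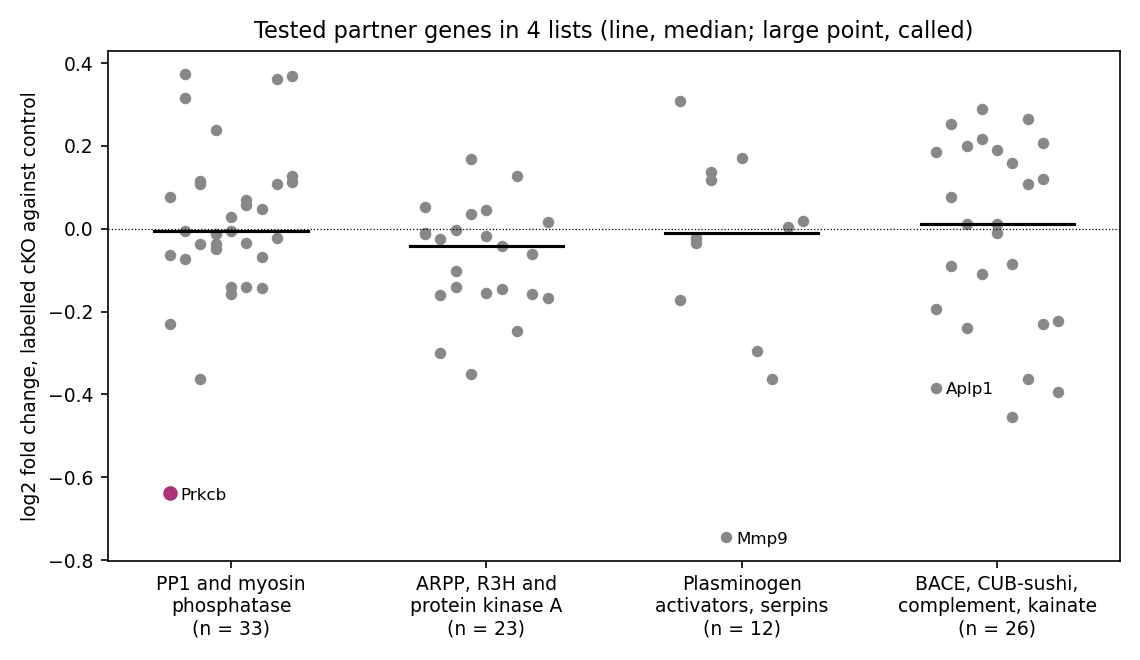
log2 fold change (vertical axis, cKO minus control) of each tested gene of the 4 larger pathway lists, a point per gene. The median of each list and the genes called at an adjusted p under 0.05 are marked. The list that holds Sertm2 alone is not drawn. The called gene is Prkcb at -0.64, and the list medians of the 4 larger lists lie between -0.04 and 0.01.

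The genes whose log2 CPM followed each picked gene most closely over the 10 libraries were also lower without overlap in the libraries labelled cKO. The likeness includes the difference between the groups for which the members were picked. For Arpp21 they included Sgpp2 (Pearson r = 0.983), a sphingosine-phosphate phosphatase, and Rbfox1 (r = 0.977), a neuronal splicing factor. For Ppp1r14c they were Aldh1a3 (r = 0.986), an enzyme of retinoic acid synthesis, Stac2 (r = 0.979) and Serpini1 (r = 0.979). For Serpini1 they were Ppp1r14c, Spock3 (r = 0.976) and Aldh1a3 (r = 0.975). For Sez6 they were Mdga1 (r = 0.985), Syt7 (r = 0.979), a synaptotagmin, and Slc17a7 (r = 0.973). For Sertm1 they were Olig1 (r = 0.985), Htr7 (r = 0.978), a serotonin receptor, and Aldh1a3 (r = 0.976). Aldh1a3 was thus listed for 3 of the 5 picked genes, at a mean of 104 CPM in controls and 46.2 CPM under the cKO label. The coefficients describe these 10 libraries and carry no p.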

How the data were processed

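RNA of 10 mouse cochlea libraries was analysed, 5 per group, each from 1 animal, so p-values measure the spread between animals. The submitters' processing notes name STAR 2.5, HTSeq 0.61, DESeq2 2 and build mm10. The annotation, strand setting and role of each tool are not given in the sources used here. The authors deposited whole-number read counts per gene and FPKM values, fragments scaled by length and depth; both were used as deposited. Totals were 33.5 to 41.8 M counts a library (M, 1000000). CPM was computed from each library's total over the genes tested, multiplied by its TMM factor.

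edgeR 4.0.16 (R 4.3.3) tested genotype: TMM factors, filterByExpr with a minimum count of 10, robust quasi-likelihood F-test, Benjamini-Hochberg adjustment over 17937 genes, calls at an adjusted p under 0.05. All 9 members passed the filter. Standard errors came from this fit, and 95% intervals from the t distribution with 8 degrees of freedom. Log2 CPM values for ratios and correlations used a prior count of 2. Simulated data tested the scripts. Alternatives changed the scaling, filter, tool (DESeq2 1.42.0, limma 3.58.1) or threshold, used FPKM, added the replicate number as a block, or left out each library. Gene positions came from GENCODE M21 and GRCm38 (54495 of 54532 identifiers matched).

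The members and the 19 gene lists were chosen with earlier results of these data known. Named genes were Esrrg, the 9 members, called genes of the lists, 4 further relatives and the 3 genes most correlated with each picked member; other genes were named after their values were seen. Picked members carry no test. The labels give no batch or date. Values of 2 genes that this rule names are not reported here.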

Additional observations from a re-analysis of the deposited data

Results flagged for a closer look

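Each of 64 measures (named genes and summed lists) was checked in both groups of 5 for a library far from the other 4, by Dixon's 95% criterion with a critical ratio of 0.71. Of 128 such groups, 8 held such a library, where chance gives about 6.4, or 5% of groups. Of the 8, 5 were control 2, and 2 concerned the 9 members.

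Ppp1r14c was at 42.6 CPM in control 2 and at 34.8 to 36.1 CPM in the other controls. Ppp1r14b was at 206 CPM there, against 128 to 146 CPM. In the same library, R3hdm1 was at 48.9 CPM against 60.9 to 64.7 CPM, Pvalb at 132 CPM against 68.2 to 81.0 CPM, and Calm2, calmodulin, at 631 CPM against 399 to 441 CPM. Prkcb was at 22.5 CPM in cKO 4 and at 26.4 to 27.9 CPM in the other libraries labelled cKO. The summed CPM of the ARPP, R3H and protein kinase A list was 4414 in cKO 5 and 4738 to 4853 in the others of its group. The summed CPM of the brain neuron list was 307 in control 1 and 271 to 279 in the other controls.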

How the results depend on the processing

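The direction of the 5 picked members is fixed by how they were chosen, so its persistence is no sign of stability; their sizes are given. Leaving out 1 library gave log2FC ranges of -1.60 to -1.48 for Arpp21, -1.30 to -1.15 for Ppp1r14c, -0.97 to -0.86 for Serpini1, -1.23 to -1.06 for Sez6 and -0.89 to -0.80 for Sertm1. With log2(FPKM + 1), Arpp21 was at -0.34, Serpini1 at -0.75 and Sez6 at -0.73, and with log2(FPKM + 0.1) Arpp21 was at -1.12; a pseudocount shrinks differences of low values. Of the relatives, Sez6l2 was called with limma-voom alone (-0.56, adjusted p = 0.0292), and its adjusted p ran from 0.0807 to 0.498 when 1 library was left out. Ppp1r14a was at -0.046 without control 5 (adjusted p = 0.941) and ran from -0.046 to 0.26 over such fits; Sez6l ran from -0.27 to -0.15 and Ppp1r14b from -0.20 to -0.01. R3hdm1, at -0.003, was at 0.0038 with no filter, 0.0021 with the replicate block, 0.0028 and 0.0059 with log2(FPKM + 1) and log2(FPKM + 0.1), and -0.079 to 0.027 with 1 library left out.

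Over all genes, 98 were called lower and 13 higher. DESeq2 called 253 and 54, limma-voom 362 and 74, and an adjusted p under 0.01 gave 41 and 7; under 0.1, 24 were higher. Fits without 1 library called 44 (without control 3) to 178 (without control 2) lower and 8 to 19 higher. Pathway genes called lower were 1 in the main analysis, 3 with DESeq2, 4 with limma-voom, and 1 to 3 with 1 library left out, 3 without control 2. The labels number replicates 1 to 5 in both groups without saying that numbers share a litter or day. Same-numbered libraries correlated at 0.0211 to 0.179 in their deviations, over 0.1 in 2 of 5 pairs. With the other numbers, the mean correlation of a control was -0.0468 to -0.00741. Of 5 controls, 3 correlated best with their own number, so these values do not exclude pairs. The main fit took no pairs because the labels state none. With the replicate block, 83 genes were called lower and 18 higher, and 81 of the 111 calls were shared. Low counts limit the precision of Ppp1r14d (SE 0.420), Sertm2 (SE 0.415) and, less so, Ppp1r14a (SE 0.200) and Arpp21 (SE 0.141).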
